A study of Mus musculus with 4 samples.

Results

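The genes described here are the 8 polyamine genes Oaz1, Oaz2, Azin1, Odc1, Amd1, Srm, Sms and Sat1 and the pseudogene Oaz1-ps, 9 of the 55385 genes in a count table from mouse granulosa cells (GCs). All 9 were matched by Ensembl identifier and all 9 passed the filter on low counts, among 19259 genes tested. The 8 polyamine genes were selected on their names and functions, with earlier results of these data known. Oaz1-ps was chosen by its difference between the groups in these same libraries, so its values are given as a description with no test.

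GCs are the somatic cells around an oocyte, and these came from preantral follicles of Kunming mice, an outbred stock, which were female and 12 to 14 days old. The follicles were cultured for 6 days with neurotrophin-4 (the NT4 group, n = 2) or without it (the Control group, n = 2). Neurotrophin-4 is a growth factor that acts through the receptor TRKB. Both groups had been through the culture, so no library stands for GCs grown in vivo, and the labels give no number of animals or follicles per sample.

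Putrescine, spermidine and spermine are small, positively charged molecules that bind nucleic acids and are needed for translation and cell growth. Ornithine decarboxylase, the product of Odc1, makes putrescine and limits the rate of the pathway. Antizymes, from Oaz1 and Oaz2, bind ornithine decarboxylase and send it to the proteasome, and a full antizyme is made only when the ribosome changes reading frame at a stop codon, a step that polyamines favour. The antizyme inhibitor from Azin1 resembles ornithine decarboxylase and takes antizyme away from it. In the ovary, ornithine decarboxylase activity is known to rise after the gonadotrophin surge.

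Oaz1-ps is annotated as a processed pseudogene, a copy of a spliced mRNA put back into the genome, at chr17:17345456-17346140 on the minus strand of GRCm38. It has 1 exon of 685 bases and lies inside an intron of AC154200.1, a long noncoding RNA gene on the same strand, whose 7 exons do not overlap it. The nearest of these exons is 2722 bases away. Its parent Oaz1 is at chr10:80826656-80829290 on the plus strand. Set against the parent's mRNA, Oaz1-ps covered the coding part and neither the 104 bases before it nor the 286 bases after it in that gene's longest coding transcript model.

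The stretch from base 113 to base 232 of Oaz1-ps, counted from its 5′ end, is shown because it holds every difference between the copy and Oaz1-201, the parent's longest coding model. It lies at chr17:17345909-17346028, and all sequences are from GENCODE M21. Capitals mark the base that differs and, where present, the 6 bases made of the last codon of the initial frame and its stop codon, where an antizyme mRNA shifts frame.
Oaz1-ps: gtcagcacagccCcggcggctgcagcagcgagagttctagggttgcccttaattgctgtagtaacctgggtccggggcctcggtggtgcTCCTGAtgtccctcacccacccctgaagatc
Oaz1: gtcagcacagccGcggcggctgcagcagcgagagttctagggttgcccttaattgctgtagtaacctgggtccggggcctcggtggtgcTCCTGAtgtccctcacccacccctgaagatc
Oaz1-201: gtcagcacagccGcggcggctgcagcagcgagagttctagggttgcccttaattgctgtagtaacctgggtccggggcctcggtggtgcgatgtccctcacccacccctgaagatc

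The line named Oaz1 joins Oaz1-201 with the 4 bases that this model leaves out at the frameshift site, bases 202 to 205 of Oaz1-ps, which are present in the models Oaz1-205 and Oaz1-206. Against the joined sequence 684 of 685 bases were identical, and the only change was G125C, with the parent's base first. It falls on base 2 of codon 42. In Oaz1-ps, as in the joined parent, 68 codons preceded the stop codon TGA at base 205, and after a shift by 1 base the next frame ran to a TAG at base 683. The reading frames of the copy were therefore as long as those of the parent.

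The identity sets how well reads could be told apart. Of the 536 windows of 150 bases in Oaz1-ps, 411 (76.7%) were identical to the parent's mRNA, and the longest identical stretch was 560 bases from base 126. Against the model Oaz1-201 alone the share was 61.8%, since windows across the frameshift site then differed as well. A window stands for a single read that lies wholly inside the copy. The paper describes paired-end sequencing. Read pairs, and reads that reach past the ends of a copy, were not modelled, here or for the other copies below. A pair can be told apart by a single mate that differs, so the window shares may overstate how many pairs match both loci. How the authors' pipeline placed reads that match both loci is not given in the sources used here, so the split of counts between Oaz1-ps and Oaz1 is uncertain.

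**Figure D1:**
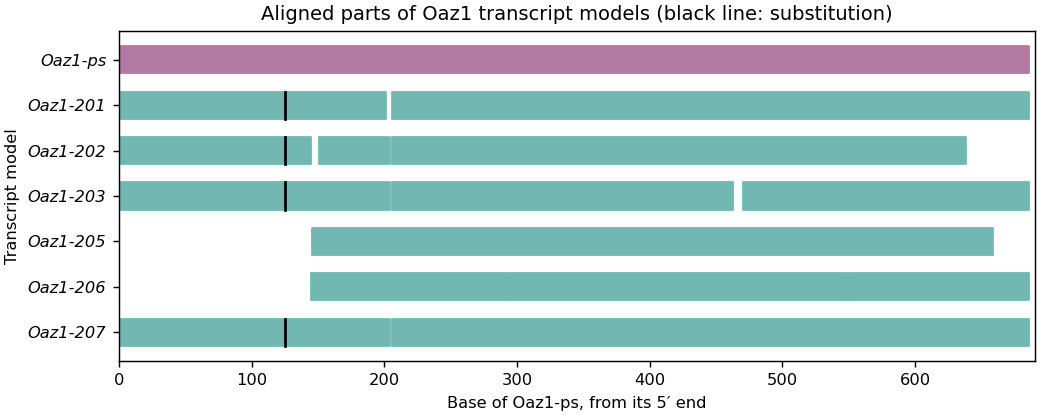
Map of Oaz1-ps (top bar, bases from its 5′ end on the horizontal axis) with the aligned parts of the 6 Oaz1 transcript models that match most of it. Black lines at base 125 mark the substitution, and gaps are bases that a model leaves out, such as the 4 at the frameshift site in Oaz1-201.

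The libraries held 49520092 to 78704020 counts. A read pair was taken to add 4 counts, and the numbers of read pairs given below rest on this assumption. Levels are given as CPM, counts scaled to the library total. A count of 0 allows a level of up to 3 read pairs, which by library was 0.152 to 0.242 CPM, for counting error only. GC markers were abundant, with 12 of 12 detected and a summed level of 12571 to 19135 CPM, led by Inha, a subunit of inhibin. Oocyte markers summed to 78.1 to 113 CPM, endothelial markers to 18.6 to 27.6 CPM, erythroid markers to 3.23 to 5.67 CPM, macrophage markers to 1.87 to 2.95 CPM and surface epithelial markers to 0.637 to 1.02 CPM, with Krt19 and Upk1b at 0 in every library. Theca and stromal markers, led by the collagen gene Col3a1, summed to 1319 to 1340 CPM in Control and 1543 to 1910 CPM in NT4. All 9 of them had higher values in NT4 and 4 of the 9 had an unadjusted p under 0.05 in edgeR, against 1.99% of all genes tested.

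Oaz1-ps had higher values in the NT4 libraries. It had 2.73 and 1.90 CPM in the Control libraries, from 34 and 35 read pairs, and 16.1 and 14.9 CPM in the NT4 libraries, from 250 and 294 read pairs. The groups did not overlap, as for 26.6% of all genes tested, and Oaz1-ps was chosen by this difference. The means were 2.31 ± 0.585 CPM (SD, n = 2) and 15.5 ± 0.852 CPM (SD, n = 2), a ratio of 6.72, and the log2 fold change of the edgeR fit was 2.77 with a standard error (SE) of 0.25.

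The parent Oaz1, which encodes the most abundant antizyme of most tissues, had 144 and 147 CPM in Control and 134 and 152 CPM in NT4. The NT4 libraries lay on either side of the Control libraries. Its log2 fold change was -0.0024 with an SE of 0.13 (edgeR adjusted p = 0.9999, n = 2 per group).

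With the counts of Oaz1 and Oaz1-ps added, the levels were 146 and 149 CPM in Control and 150 and 167 CPM in NT4. Both NT4 libraries were then above both Control libraries, by a margin smaller than the spread of Oaz1 within either group. The log2 fold change of the sum was 0.12 with an SE of 0.13, smaller than its error. Between the group means, NT4 minus Control, the difference was 13.2 CPM for Oaz1-ps, -2.42 CPM for Oaz1 and 10.8 CPM for the sum. Oaz1-ps was chosen by its difference, so that this was larger than the opposite one in Oaz1 is a description only. The SD of Oaz1 among the NT4 libraries, 12.9 CPM, was of the same size as the Oaz1-ps difference. Whether counts moved between the loci was not tested.

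Of the summed count, Oaz1-ps held 1.86% (95% exact binomial interval 1.30 to 2.61) and 1.28% (0.89 to 1.77) in the Control libraries. In the NT4 libraries it held 10.8% (9.53 to 12.1) and 8.94% (8.0 to 9.98). The intervals were computed from read pairs and cover counting error only, not the spread between samples. The mean shares were 1.57% ± 0.415 (SD, n = 2) and 9.86% ± 1.29 (SD, n = 2). Scaled to transcript length, with 685 bases for Oaz1-ps and 1071 for Oaz1, the means were 2.43% and 14.6%. Even in NT4, therefore, most of the antizyme 1 signal was counted on the parent.

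**Figure D2:**
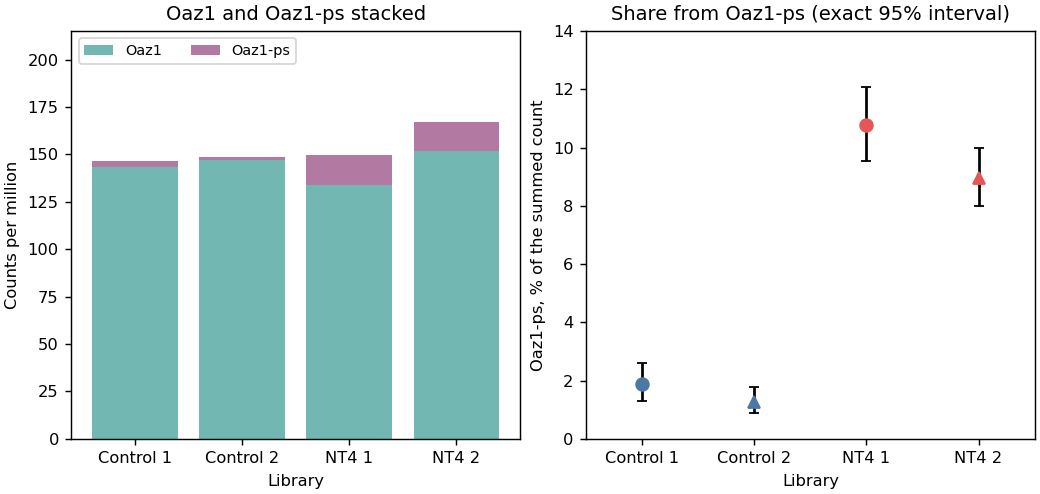
Left, CPM of Oaz1 and Oaz1-ps stacked for each of the 4 libraries, with the axis from 0. Right, the share of the summed count from Oaz1-ps with exact binomial 95% intervals, 1.28% and 1.86% in Control and 8.94% and 10.8% in NT4, while the stacked height ranges from 146 to 167 CPM.

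Of the genes around Oaz1-ps, only Riok2 was well detected. AC154200.1, whose intron holds the pseudogene, had 2 and 4 counts in Control and 11 and 0 in NT4, under the 12 counts that 3 read pairs give and too few for a comparison. Riok2, a ribosome assembly kinase on the opposite strand, had 61.5 and 56.2 CPM in Control and 59.4 and 55.9 CPM in NT4. The other neighbours within 50 kb, Gm6712 and Gm26873, were under 1 CPM in every library. Oaz1-ps was chosen by its difference between the groups, so genes with a like pattern are ones with a like difference. Those at a mean of at least 1 CPM whose centred log2 CPM lay nearest to that of Oaz1-ps over the 4 libraries were Zfp82, Dnal1, Gm10501 and Dlk1, at distances of 0.18, 0.52, 0.71 and 0.71. The nearest, Zfp82, had 0.424 and 0.244 CPM in Control and 2.58 and 2.45 CPM in NT4, and Dnal1, an axonemal dynein light chain, had 5.31 and 5.57 CPM in Control and 34.1 and 27.0 CPM in NT4. Zfp82, Gm10501 and Dlk1 reached a mean of 1 CPM only through the NT4 libraries.

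Among the 1900 processed pseudogenes tested, the median log2 fold change was -0.07. Of these, 59 had a fold above 2 and 137 a fold under 0.5, and 34 also had an unadjusted p under 0.05. Many lay at low levels: of the 1030 at a mean of at least 1 CPM, 39 had a fold above 2 or under 0.5. Across all genes tested, 1.08% met the criterion of the study, an unadjusted p under 0.05 and a fold either above 2 or under 0.5.

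Oaz2, the other antizyme gene, had lower values in NT4. It had 62.6 and 63.3 CPM in Control and 34.8 and 34.2 CPM in NT4. The groups did not overlap, and the libraries within each group differed by less than 1 CPM. The NT4 mean was 54.8% of the Control mean, and the log2 fold change was -0.85 with an SE of 0.12. With an unadjusted p of 0.00081 it did not pass the adjusted threshold over all genes in edgeR (adjusted p = 0.714), and its fold did not reach 0.5. Of the 19259 genes tested, 21, Oaz2 included, had an unadjusted p no larger, while 0% of genes passed the adjusted threshold and 1.99% had an unadjusted p under 0.05.

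The call on Oaz2 depended on the test, since DESeq2 gave an adjusted p of 0.000628 and the edgeR exact test one of 0.0189. With each library left out in turn, its log2 fold change stayed between -0.87 and -0.82. Theca and stromal markers were higher in NT4, like Oaz1-ps and unlike Oaz2, and their part in either difference was not tested. In bulk samples like these, fewer cells of a type and less RNA per cell cannot be told apart.

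The balance of the antizyme mRNAs followed from these values. Per kilobase of transcript, Oaz2 made up 20.2% and 20.0% of Oaz1 plus Oaz2 in the Control libraries. In the NT4 libraries it made up 13.1% and 11.5%. The ratio of Odc1 to both antizymes on this scale was 0.498 and 0.495 in Control and 0.579 and 0.545 in NT4. An alternative chosen after seeing the data added the counts of Oaz1-ps to those of Oaz1. The Odc1 ratio was then 0.491 and 0.490 in Control and 0.524 and 0.501 in NT4. The groups still did not overlap, as for 26.6% of single genes tested, and the divisor holds Oaz2, which was lower in NT4. Because Oaz1-ps was chosen by its difference between the groups, this addition had to lower the NT4 ratio more. Nothing is concluded from the smaller difference. The Oaz2 share was then 19.9% and 19.8% in Control and 11.9% and 10.6% in NT4. The ratio of Azin1 to both antizymes, with the counts as deposited, was 0.195 and 0.140 in Control and 0.229 and 0.127 in NT4, where the groups overlapped. The antizymes are paralogs whose reads could be separated: the best local alignment of the Oaz1 coding part with Oaz2 was 70.2% identical over 191 bases, with no shared stretch above 15 bases.

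The level of Odc1 hardly differed between libraries. It had 185 and 187 CPM in Control and 184 and 193 CPM in NT4, a log2 fold change of 0.04 with an SE of 0.12 (edgeR adjusted p = 0.9999). Azin1 had 160 and 117 CPM in Control and 160 and 99.5 CPM in NT4. Its libraries differed more within each group than the groups did, and its log2 fold change was -0.07 with an SE of 0.26. Odc1 and Azin1 were 64.9% identical over 949 aligned bases, and the longest stretch they shared was 17 bases.

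The enzymes that turn putrescine into spermidine and spermine showed no difference above their error. Amd1, which decarboxylates S-adenosylmethionine to give the aminopropyl donor, had 131 and 137 CPM in Control and 137 and 104 CPM in NT4, so that a single NT4 library was lower. Srm, spermidine synthase, had 133 and 122 CPM in Control and 129 and 126 CPM in NT4. Sms, spermine synthase, had 38.2 and 31.5 CPM in Control and 36.1 and 30.7 CPM in NT4. Their log2 fold changes were -0.14 (SE 0.16), 0.02 (SE 0.11) and -0.04 (SE 0.17). The groups overlapped for all 3 of these genes.

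Sat1, which acetylates spermidine and spermine for breakdown or export, had 19.1 and 16.1 CPM in Control and 23.1 and 16.2 CPM in NT4. Its log2 fold change was 0.18 with an SE of 0.22, since the NT4 libraries differed from each other by more than the groups did.

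Of the 8 polyamine genes, 0 passed the edgeR adjusted threshold, 1 (Oaz2) had an unadjusted p under 0.05, against 1.99% of all genes, and 1 (again Oaz2) had groups that did not overlap, against 26.6% of all genes tested. For 7 of the 8 the log2 fold change was smaller than its SE. Their median log2 fold change was -0.02, and that of all genes tested was 0.0045. By level per kilobase of transcript, Oaz1 led with 125 to 142 CPM per kilobase over the 4 libraries. Srm followed with 91.5 to 99.4 and Odc1 with 83.1 to 87.4 CPM per kilobase. Amd1 had 32.5 to 42.8, Azin1 20.4 to 32.9 and Oaz2 18.5 to 34.3 CPM per kilobase, and the ranges of these 3 overlapped. Sat1 had 13.8 to 19.9 CPM per kilobase, a range that overlapped with that of Oaz2, and Sms was lowest of the 8 with 8.27 to 10.3. Oaz1-ps had 2.77 and 3.98 CPM per kilobase in Control, below every polyamine gene, and 21.8 and 23.6 in NT4, above Oaz2 in the same libraries.

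**Figure D3:**
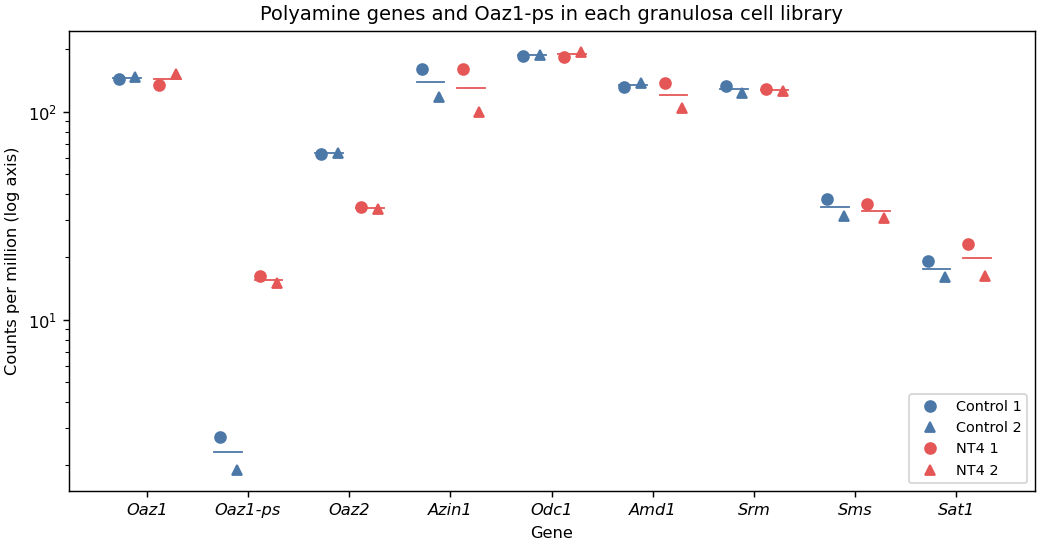
CPM on a log axis for the 9 genes in each library (circles, number 1; triangles, number 2; bars, group means). Oaz1-ps is higher and Oaz2 lower in both NT4 libraries, and the groups overlap for the other 7 genes.

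Sequence copies of the polyamine genes were searched among all annotated transcripts, at 90% identity or more over at least 150 bases. There were 34 copies of 7 genes, 33 of them processed pseudogenes, and Azin1 had none. Of the 34, 10 were at 0 in every library and 15 were tested, including Oaz1-ps. The other 14 had log2 fold changes from -0.68 to 3.01, 1 of them with a fold above 2 or under 0.5. Of the 14, 0 had an unadjusted p under 0.05 in edgeR, against 1.99% of all genes tested, and 14 genes are too few to tell these apart. Oaz2 had 2 copies. Of these Oaz2-ps had 65 and 63 counts in Control and 65 and 92 in NT4, with no window of 150 bases identical to Oaz2, and Gm7543 had 2 counts in 1 NT4 library and 0 in the others.

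The value of 3.01 belonged to Gm15470, a copy of Odc1, which was named after its values were seen. It had 9 and 0 counts in Control and 47 and 48 in NT4, and no window of 150 bases in it was identical to Odc1. The Control libraries were under the 12 counts that 3 read pairs give, and the edgeR unadjusted p was 0.084. Of the other Odc1 copies, Gm7993 was the highest, with 45.3 and 42.2 CPM in Control and 40.5 and 40.2 CPM in NT4, and only 1.46% of its windows were identical to Odc1. The 13 copies together held 21.3% to 23.7% of the counts of Odc1 and its copies in each library. The corresponding shares were 12.4% to 18.6% for the 8 copies of Amd1 and 19.9% to 25.0% for the 7 copies of Sms.

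Copies of Sms and Amd1 were closer to their parents. Sms-ps was identical to Sms over its whole length, so 100% of its windows were shared, and it had 8.56 and 8.45 CPM in Control and 9.33 and 9.81 CPM in NT4. Its log2 fold change was 0.19 with an SE of 0.17. Amd-ps3, with 82.5% of its windows identical to Amd1, had 9.17 and 11.2 CPM in Control and 9.81 and 7.57 CPM in NT4. Amd2 is a protein-coding copy of Amd1 with 61.6% of its windows identical, and it had 19.6 and 6.45 CPM in Control and 16.7 and 13.6 CPM in NT4. The low value in 1 Control library left Amd2 with an SE of 0.50 for a log2 fold change of 0.25. The part of shared reads in the values of these copies and of Oaz1-ps was not tested.

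The rest of the pathway was read from lists of 48 genes, of which 42 were tested. In edgeR 0 passed the adjusted threshold, 1 was higher and 1 lower at an unadjusted p under 0.05, against 1.99% of all genes tested, and 0 met the study's criterion, against 1.08%. By sign alone 23 were higher and 19 lower in NT4, with a median log2 fold change of 0.02, and the groups did not overlap for 2 of the 42, against 26.6% of all genes. Aoc1, Satl1, Slc22a2 and Slc22a16 were at 0 in every library.

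The gene with an unadjusted p under 0.05 and a higher level was Smox, spermine oxidase, which turns spermine back into spermidine. It had 12.7 and 15.3 CPM in Control and 18.1 and 21.3 CPM in NT4. Both NT4 libraries were above both Control libraries, and the log2 fold change was 0.52 with an SE of 0.19 (edgeR unadjusted p = 0.041, adjusted p = 0.9999). The other genes of breakdown had overlapping groups. Paox, which oxidizes acetylated polyamines, had 12.3 and 15.9 CPM in Control and 17.3 and 14.9 CPM in NT4, and Sat2, a relative of Sat1, had log2 fold change -0.13 with an SE of 0.21.

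The gene with a lower level was Slc7a2, a transporter of cationic amino acids, named after its values were seen. It had 5.96 and 6.67 CPM in Control and 2.95 and 4.41 CPM in NT4. The log2 fold change was -0.75 and its SE 0.29 (edgeR unadjusted p = 0.045, adjusted p = 0.9999). Of the other transport genes, Slc3a2, which codes for a chain shared by several amino acid transporters, had 239 and 254 CPM in Control and 225 and 254 CPM in NT4. The lysosomal polyamine exporter gene Atp13a2 had a log2 fold change of -0.04 (SE 0.15), and its relative Atp13a3 one of -0.07 (SE 0.14).

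Among genes of the precursors, Oat, ornithine aminotransferase, was abundant, with 188 and 184 CPM in Control and 182 and 198 CPM in NT4. Eif5a, whose protein carries hypusine, a residue built from spermidine, had the highest level of the lists, with 714 and 594 CPM in Control and 617 and 599 CPM in NT4. Dhps and Dohh, the enzymes that make hypusine, had log2 fold changes of 0.04 (SE 0.15) and 0.03 (SE 0.15).

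**Figure D4:**
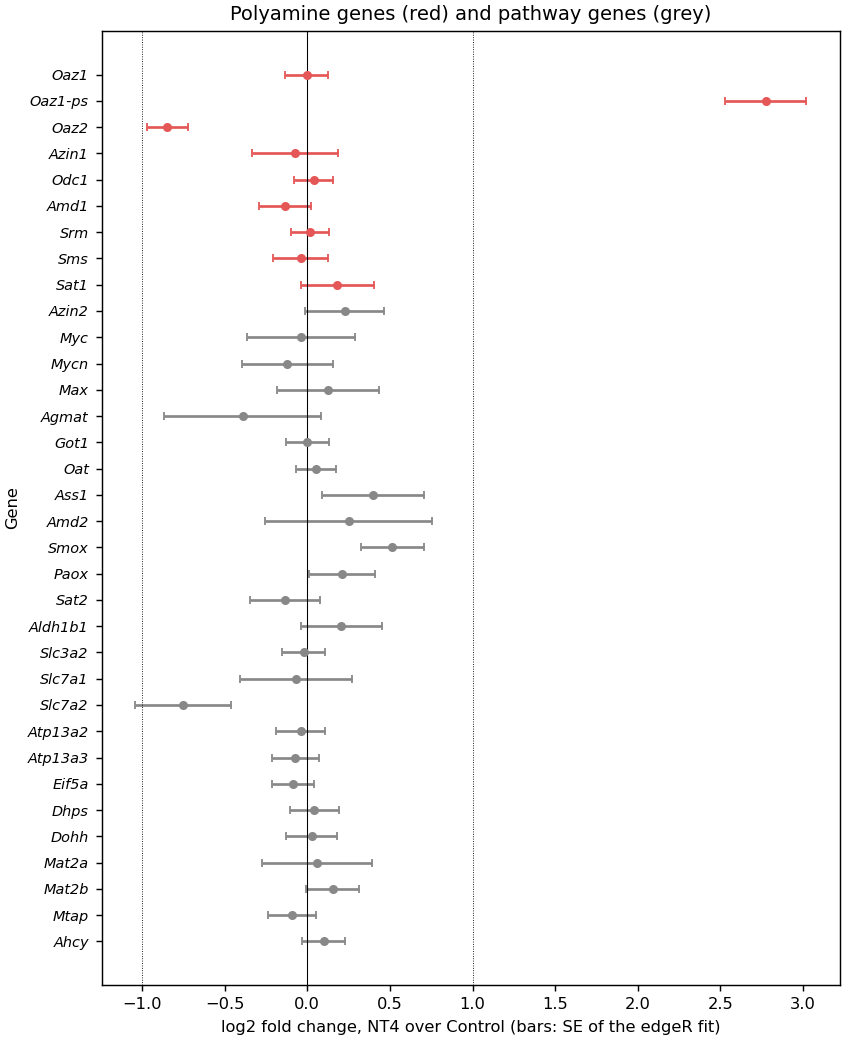
Log2 fold change of NT4 over Control with SE from the edgeR fit, for the 9 genes (red) and the named pathway genes (grey), with dotted lines at the 2-fold limits. Oaz1-ps lies at 2.77 and is drawn as a description, Oaz2 lies at -0.85, and for most other genes the SE bar reaches 0.

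Several regulators and suppliers of the pathway spread widely within the groups, as Azin1 did. Myc, a transcription factor known to activate Odc1, had 121 and 82.4 CPM in Control and 128 and 68.2 CPM in NT4, and its relative Mycn had 51.8 and 81.8 CPM in Control and 51.5 and 69.6 CPM in NT4. Mat2a, which makes S-adenosylmethionine, had 256 and 150 CPM in Control and 261 and 156 CPM in NT4. Slc7a1, the main importer of arginine, had 178 and 125 CPM in Control and 189 and 96.4 CPM in NT4. For these genes the libraries of a group stood further apart than the group means, and the log2 fold changes, -0.04 for Myc, -0.12 for Mycn, 0.06 for Mat2a and -0.07 for Slc7a1, carried SEs of 0.28 to 0.34. In both groups the library numbered 1 was the higher for Azin1, Myc, Mat2a and Slc7a1, and the lower for Mycn. Libraries numbered 1 and 2 did not overlap, in either direction, for 48.6% of all genes tested and for 6 of the 8 polyamine genes. The labels do not say what a number stands for.

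**Figure D5:**
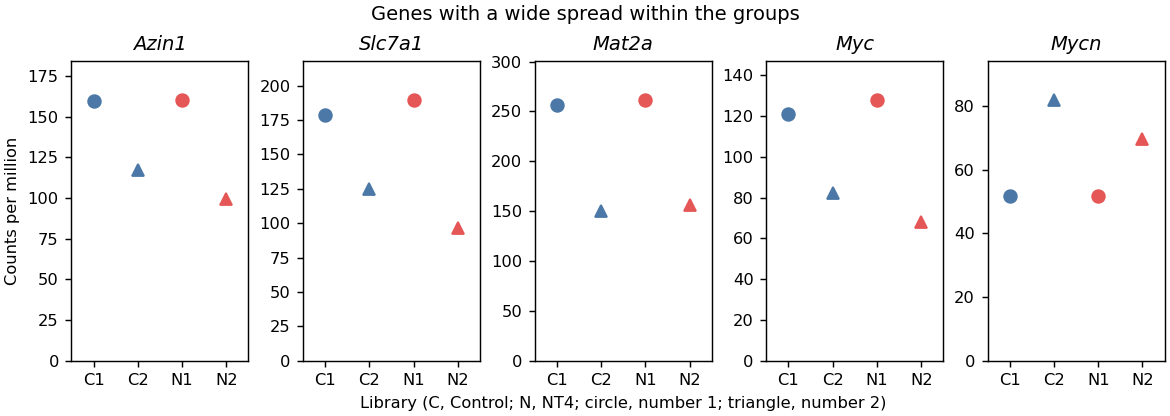
CPM of Azin1, Slc7a1, Mat2a, Myc and Mycn in each library (C, Control; N, NT4), with axes from 0, chosen for display after the values were seen. In each gene the libraries of a group differ by more than the group means, as for Mat2a with 256 and 150 CPM in Control and 261 and 156 CPM in NT4.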

How the data were processed

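Bulk RNA sequencing of 4 GC libraries was analysed, 2 per group, from independent experiments by the study's methods. The authors mapped reads with HISAT2 and estimated expression with StringTie and ballgown. As the genome the paper names an Ensembl release for GCs and mm10 (GRCm38) for oocytes. Gene models here were from GENCODE M21. Deposited are expected counts per gene, estimated by the authors and not normalized. They are whole numbers, and 45.4% to 46.2% of counts from 1 to 12 were multiples of 4, so 1 read pair was taken to add 4 counts. The files of single libraries were identical to the table in 4 of 4 cases. Symbols matched 55144 of 55385 genes.

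The members and lists were chosen with earlier results of these data known. Groups were compared in edgeR 4.0.16 (R 4.3.3) by its quasi-likelihood test, two-sided, with TMM, the default filter, the group alone in the model and Benjamini-Hochberg adjustment over 19259 genes at 0.05. The SE of an edgeR log2 fold change was derived here, as its size divided by the square root of the test's F statistic. The study's criterion (unadjusted p under 0.05, fold above 2 or under 0.5) was also counted, with the fits made here. The scripts were tested on simulated data. Pathway genes named were up to 3 per list with the highest level per length, those fixed by name and those past the study's criterion. Some genes that these rules select are not reported here. Copies were found with BLAST 2.17.0. Alternatives were other scalings, filters and thresholds, DESeq2 1.42.0, limma 3.58.1, edgeR's exact test, a replicate block, summed or divided counts and leaving out each library. A permutation of 2 against 2 libraries cannot give a p below 0.333.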

Additional observations from a re-analysis of the deposited data

How the results depend on the processing

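With a library left out, the log2 fold change of Oaz2 was -0.87 to -0.82, and that of Oaz1-ps, which was chosen by this difference, 2.54 to 3.04. The number of the 8 polyamine genes past the adjusted threshold was 0, and 1 (Oaz2) with DESeq2 and with the exact test. At a fold of 1.5 the study's criterion held for 1 polyamine gene (Oaz2) and 1 pathway gene (Slc7a2), of 302 among all genes tested, while at a fold of 2 it held for 0 to 2 pathway genes with a library left out. Over all genes, 0 passed the adjusted threshold with edgeR (383 at an unadjusted p under 0.05), 10 with no filter, 63 with DESeq2, which gave no adjusted p for 28 genes, 59 with the exact test and 0 to 37 with a library left out. Each fit with a library left out has a group of 1, whose spread is assumed to be that of the other group, and the 37 came without Control replicate 2. The study's criterion gave 208 genes, 345 with no filter, 87 with a filter at 1 CPM in 2 libraries, 334 with DESeq2, 119 with counts divided by 4 and 341 to 512 with a library left out. All these counts are from fits made here, and none is the number of genes that the paper reports. The cause of these shifts was not tested. The mean share of Oaz1-ps was 2.43% and 14.6% per kilobase of transcript, and 5.61% and 28.95% per kilobase of all annotated exons, a scale chosen after seeing the data. The summed log2 fold change of 0.12 lay between 0.022 and 0.21 when a library was left out, against -0.0024 for Oaz1 alone.

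With the replicate block 0 genes passed the adjusted threshold and 180 met the study's criterion, and the block changed no call on a polyamine gene. The labels do not say that a number marks an experiment. Deviations of same-numbered libraries correlated with r = 0.14 over all genes and 0.31 over the 10491 with a mean log2 CPM above 3.

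Some log2 fold changes changed sign. That of Srm was -0.0041 with library totals. That of Got1 was -0.0030 with DESeq2 size factors and with upper-quartile factors, -0.018 with library totals, -0.0018 with no filter and with DESeq2, -0.0035 with the CPM filter and with the block, -0.0049 with voom and -0.0025 with counts divided by 4. With a library left out, the ranges that crossed 0 were -0.12 to 0.10 for Oaz1, -0.44 to 0.21 for Azin1, -0.020 to 0.086 for Odc1, -0.33 to 0.031 for Amd1, -0.027 to 0.062 for Srm, -0.16 to 0.091 for Sms, -0.080 to 0.40 for Sat1, -0.70 to 7.22 for Oaz3, -0.061 to 0.46 for Azin2, -0.54 to 0.33 for Myc, -0.42 to 0.27 for Mycn, -0.26 to 0.67 for Max, -0.12 to 0.11 for Got1, -0.034 to 0.12 for Oat, -0.072 to 0.74 for Ass1, -0.33 to 1.24 for Amd2, -0.33 to 0.089 for Sat2, -0.13 to 0.074 for Slc3a2, -0.62 to 0.32 for Slc7a1, -0.19 to 0.091 for Atp13a2, -0.19 to 0.035 for Atp13a3, -0.20 to 0.039 for Eif5a, -0.036 to 0.11 for Dhps, -0.15 to 0.17 for Dohh, -0.34 to 0.48 for Mat2a, -0.024 to 0.30 for Mat2b and -0.21 to 0.034 for Mtap. Of the values for single genes other than Oaz1-ps, 422 kept direction and call and 49 changed sign, and Oaz2 came to pass the adjusted threshold in 2. With 2 libraries per group, differences of several SEs, as for Oaz2 and Smox, did not pass the adjusted threshold in edgeR.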
